A study of Mus musculus with 7 samples.

Results

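The 8 mouse genes of the GIMAP family (GTPases of immunity-associated proteins) were followed in sorted regulatory T cells in which Id2 and Id3 were targeted for deletion and in control regulatory T cells. The members, Gimap1, Gimap3, Gimap4, Gimap5, Gimap6, Gimap7, Gimap8 and Gimap9, were taken by gene symbol from a deposited table of 39179 genes, and all 8 were found there and tested. The double-knockout (dKO) libraries came from mice with both alleles of Id2 and Id3 floxed and a Cre recombinase at Foxp3, written Id2fl/flId3fl/flFoxp3cre (with Foxp3Cre/Cre in the design text). The control libraries came from Id2fl/+Id3fl/+Foxp3cre mice, so controls carried the same Cre and 1 floxed and 1 normal allele of each gene. Id2 and Id3 are inhibitors of the E protein transcription factors, and Foxp3 drives the Cre in regulatory T cells. All mice were 3-week-old C57BL/6 animals, and the cells were CD4+TCRb+CD25hi Foxp3+ cells of the lymph node. A replicated comparison held 3 dKO and 2 control libraries. A separate single pair held 1 library labelled dKO and 1 library labelled control, named here by their titles and source names. The genotype labels of this pair are the reverse, so by genotype the library labelled dKO would be the control, and each log2 ratio of the pair would change sign. The labels do not say which libraries came from separate animals, so p-values cover only the spread among the libraries. Among the dKO libraries that spread may be technical. The 2 control libraries differed in Y-linked reads, as given below, so they were not repeats of 1 sample.

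GIMAP proteins are small GTPases with an AIG1-type domain that are found mainly in lymphocytes and sit on or near the membranes of organelles. Several of them keep lymphocytes alive: mice without Gimap5 lose T cells and develop colitis, and mice without Gimap1 lack most mature T and B cells. The genes lie side by side in 1 cluster. Their proteins bind GTP, and some of them hydrolyse it as pairs or larger assemblies.

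The family spanned 119 kb of chromosome 6 (GRCm38), from the start of Gimap8 to the end of Gimap3. In order along the chromosome, Gimap8 (ENSMUSG00000064262) lay at 48647234 to 48660875, Gimap9 (ENSMUSG00000051124) at 48676129 to 48679114 and Gimap4 (ENSMUSG00000054435) at 48684549 to 48692060. Gimap6 (ENSMUSG00000047867) followed at 48701582 to 48708225 and Gimap7 (ENSMUSG00000043931) at 48718621 to 48724636. Gimap1 (ENSMUSG00000090019) lay at 48739054 to 48743790, Gimap5 (ENSMUSG00000043505) at 48746197 to 48754210 and Gimap3 (ENSMUSG00000039264) at 48765089 to 48766519. Gimap6 and Gimap3 are on the minus strand and the other members on the plus strand. The table lists an exon length for each gene. The exon length listed for Gimap3, 906 bases, equals its open reading frame, and the GENCODE vM21 annotation of the same build extends that gene to 48764464 to 48770851, so by that length Gimap3 was counted over its coding part alone in the replicated comparison.

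Every member held a stretch that codes for the P-loop, the phosphate-binding loop of GTPases. Other genes were not searched for this stretch, so it does not set the family apart. It was found in the longest open reading frame of each member's GENCODE vM21 transcripts (GRCm38) by the Walker A pattern. Each stretch has 24 bases, written 5′ to 3′, and the capitals mark the codons of the lysine and the serine that end the loop. Gimap8 held 3 such stretches and every other member 1:
Gimap8, match 1: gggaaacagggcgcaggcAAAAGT
Gimap8, match 2: gggaagcgtggtgttgggAAAAGT
Gimap8, match 3: ggaaggagtggggctggaAAGAGT
Gimap9: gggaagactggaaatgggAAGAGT
Gimap4: ggaaaaactggagcaggaAAGAGT
Gimap6: gggaaaacaggaagcgggAAAAGT
Gimap7: gggaaaacaggaagtggaAAGAGC
Gimap1: ggcaggactgggaccggcAAGAGT
Gimap5: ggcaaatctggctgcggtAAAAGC
Gimap3: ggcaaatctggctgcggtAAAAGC
The stretches of Gimap5 and Gimap3 were identical to each other, as the last entries show. Over the whole coding sequence, Gimap5 and Gimap3 shared 90.3% of 898 aligned bases. The next closest of the 28 pairs was Gimap9 with Gimap7, at 66.7%, and the most distant was Gimap9 with Gimap1, at 55.9%. Of all stretches of 50 bases in the transcripts of Gimap5, 4.53% also occurred in Gimap3, and of those of Gimap3, 7.52% occurred in Gimap5. These shares are over whole transcripts. The share within the coding part, over which Gimap3 was counted, was not computed and may be larger. No other pair of members shared any stretch of 50 bases. Reads of Gimap3 and Gimap5 may therefore be split between these genes by the counting, while Gimap4, Gimap8 and Gimap9 shared no stretch with any other annotated gene on the same strand.

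**Figure D1:**
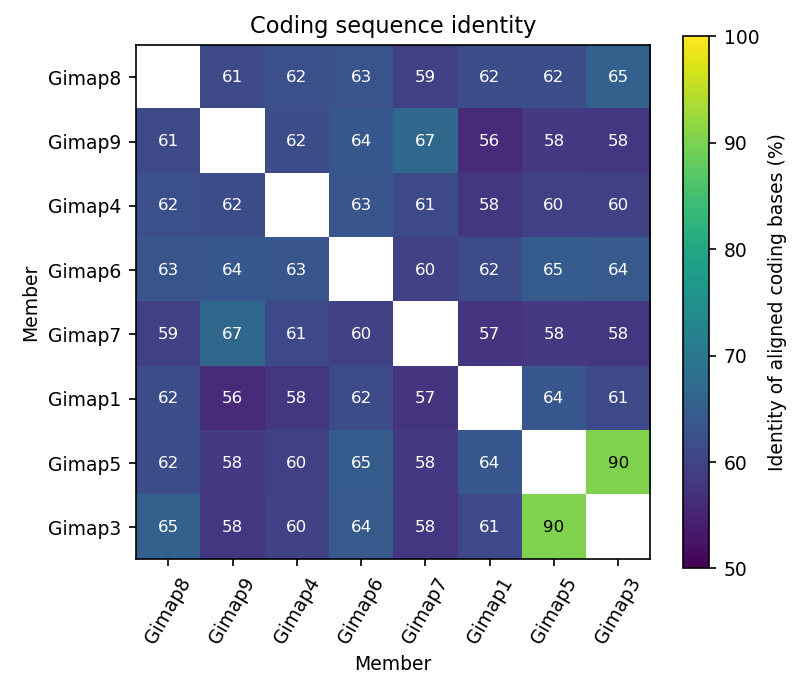
Identity of aligned coding bases, in percent, for each pair of members, with members in chromosome order on both axes and the diagonal left blank. Gimap5 and Gimap3 stand out at 90.3%, and the next pair, Gimap9 and Gimap7, reaches 66.7%.

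Values of the replicated comparison are group means of scaled counts, that is, read counts divided by a size factor for each library. They were deposited as 1 mean over 3 dKO libraries and 1 mean over 2 control libraries, with no value per library, so no SD can be given. The size factors recovered from the smallest steps of these means were 0.929, 0.910 and 0.860 in dKO libraries, against 1.29 and 1.09 in control libraries. All scaled counts summed to 39948550 in dKO and 38950892 in control. As a check of the labels, Id2 had 61.1 scaled counts in dKO and 783 in control, for which the authors' deposited table lists an adjusted p of 1.48e-08. Id3 had 891 in dKO and 1376 in control, for which the authors' deposited table lists an adjusted p of 0.209. The control libraries differed in reads of the Y chromosome. Whole reads per control library could be recovered for genes of low mean, and of the reads of Kdm5d, a Y-linked gene, 285 lay in a single control library, against 3 in its partner. The mean of Kdm5d was 2.56 scaled counts in dKO and 112 in control, and that of Uty, also Y-linked, was 17.8 in dKO and 128 in control, so the groups differ in Y-linked signal too. Its part in the members' values was not tested. The control mean of Gimap7 was met by 8 pairs of whole read numbers and those of the other members by 9 to 52, so members could not be split by control library, and no member can be given without 1 of them. Of the 8 T cell markers, 1 rose and 0 fell by the authors' deposited table (DESeq), against 3.38% and 3.18% of all genes. At an unadjusted p under 0.05, 3 were higher (Ctla4, Cd4 and Cd3g) and 2 lower (Ikzf2 and Foxp3). That threshold was met by 13.5% of all genes in either direction. The riser was Ctla4, an inhibitory receptor gene, with 26706 scaled counts in dKO and 13258 in control (adjusted p 4.71e-05 in the authors' deposited table). Foxp3 had 10942 in dKO and 13481 in control (adjusted p 0.188 in the authors' deposited table).

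Gimap7 rose 2.55-fold in dKO and Gimap4 rose 1.35-fold, and the other 6 members did not pass the test. A gene is said to have risen or fallen where its adjusted p in the authors' deposited table is under 0.05. By that threshold 2 of 8 members rose and 0 fell in DESeq, the tool named for this table. At an unadjusted p under 0.05, 3 were higher and 0 lower. Across all 31641 genes with a p, 6.56% passed, 3.38% higher and 3.18% lower in dKO. All members are abundant, and among the 2972 genes that averaged at least 3000 scaled counts 14.7% passed, 9.19% higher and 5.48% lower. All 8 members had a higher mean in dKO than in control, as did 58.3% of those abundant genes. With the group totals set equal, Gimap3 had a lower mean in dKO. The median log2 fold change was 0.18 over the 8 members, 0.05 over the abundant genes and -0.01 over all 15437 genes that averaged at least 10.

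**Figure D2:**
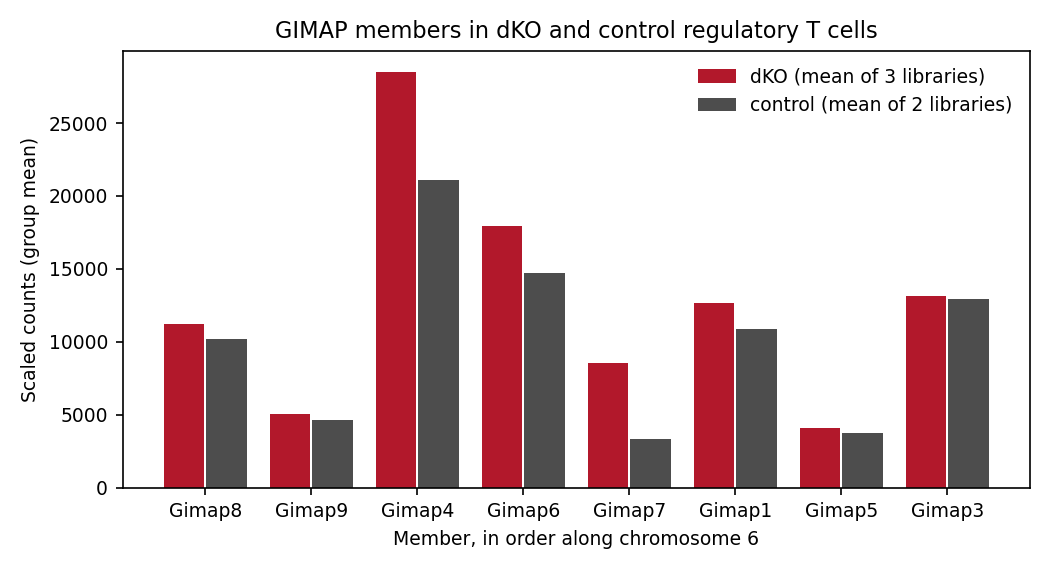
Group means of scaled counts for the 8 members, in chromosome order, with dKO (red, mean of 3 libraries) left of control (grey, mean of 2 libraries), on a linear axis from 0. The gap is widest in proportion at Gimap7, with 8588 in dKO and 3364 in control, and the paired bars of Gimap3 are nearly level.

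Among the members that lack a membrane anchor, Gimap7 stood apart. In humans its protein pairs with another GIMAP protein and speeds up GTP hydrolysis. Gimap7 had 8588 scaled counts in dKO, against 3364 in control. Its log2 fold change was 1.35 in the authors' deposited table, where p was 1.38e-09 unadjusted and 1.33e-07 adjusted. Only 16 of the 2972 abundant genes had a larger log2 fold change. An approximate standard error follows from the deposited p, as the log2 fold change divided by the normal deviate of that p. For Gimap7 it was 0.22, which gives a 95% interval of 0.91 to 1.79. The mean of Gimap7 was 0.478 times that of Gimap6 in dKO and 0.228 times in control.

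Gimap4, whose product promotes the death of T cells in mice, was the member with the most scaled counts in both groups. It had 28525 in dKO, against 21073 in control. The authors' deposited table gives log2 0.44 and an adjusted p of 0.0477, close to the threshold, and the implied interval ran from 0.15 to 0.73. This interval does not reach that of Gimap7, but the difference between members was not tested. Of the 19544 scaled counts by which the family's sum was higher in dKO, 38.1% were those of Gimap4 and 26.7% those of Gimap7.

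Gimap6, which takes part in autophagy and binds the ATG8 protein GABARAPL2, had 17948 scaled counts in dKO and 14746 in control. Its log2 fold change was 0.28 in the authors' deposited table, with an unadjusted p of 0.0311 and an adjusted p of 0.268, so it did not pass. For comparison, 13.5% of all genes had an unadjusted p under 0.05. The implied interval for Gimap6, from 0.03 to 0.54, does not exclude a change as large as that of Gimap4.

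The members with a membrane anchor at the end of the protein are Gimap1, Gimap5 and Gimap3, and none of them passed. Gimap1, required for the survival of mature lymphocytes in mice, had 12650 scaled counts in dKO and 10891 in control. In the authors' deposited table its log2 was 0.22 and its adjusted p 0.602, and the implied interval was -0.05 to 0.48. Gimap5, whose product sits on lysosomes and related vesicles and is needed for T cell survival, had 4122 scaled counts in dKO and 3765 in control. The authors' deposited table lists log2 0.13 and adjusted p 1 for it, and the implied interval was -0.12 to 0.38. Gimap3, an organelle membrane protein that affects the segregation of mitochondrial DNA in mice, had 13138 scaled counts in dKO and 12961 in control. Log2 0.02 and adjusted p 1 are listed for it in the authors' deposited table, and the implied interval was -0.23 to 0.27. The approximate intervals of these 3 members do not reach that of Gimap7, which began at 0.91, but the difference between members was not tested. Because Gimap3 and Gimap5 share sequence, their counts were also summed, which gave a log2 ratio of 0.05.

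The remaining members did not pass either. Gimap8, the member with 3 P-loops, had 11207 scaled counts in dKO and 10213 in control (log2 0.13, adjusted p 1 in the authors' deposited table). Gimap9 had 5053 in dKO and 4674 in control (log2 0.11, adjusted p 1 in the authors' deposited table). The implied intervals were -0.13 to 0.40 for Gimap8 and -0.18 to 0.40 for Gimap9. Gimap9 is the closest relative of Gimap7 in coding sequence. Its approximate interval does not reach that of Gimap7, but the difference between members was not tested.

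**Figure D3:**
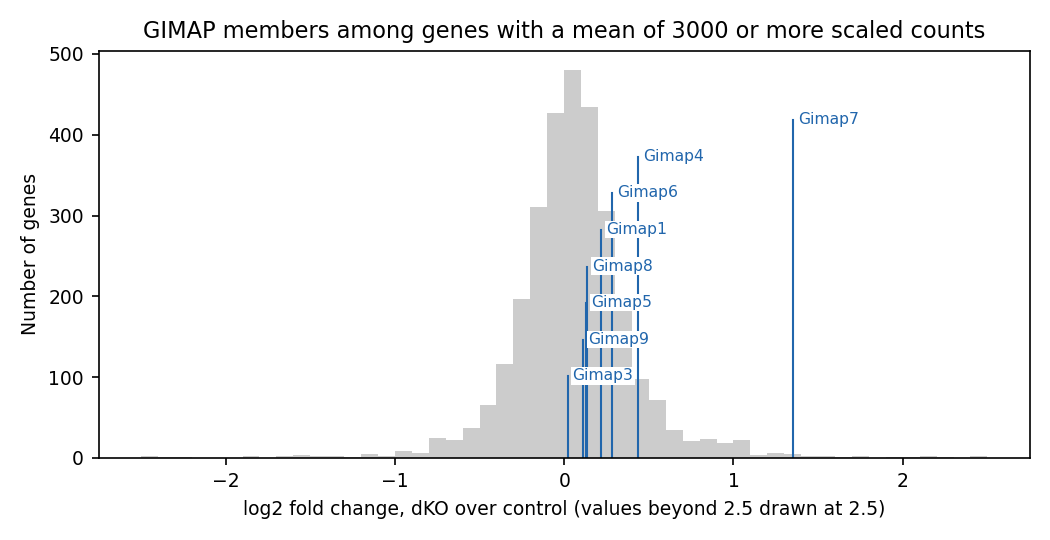
Histogram of log2 fold changes, dKO over control, for 2972 genes that averaged at least 3000 scaled counts, with each member marked by a blue line whose height has no meaning. Gimap7 at 1.35 lies in the right tail, Gimap4 follows at 0.44, and Gimap3 lies at 0.02.

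Levels per kilobase of exon place the members in order of abundance. In dKO, Gimap4 came first with 15528 scaled counts per kb, followed by Gimap3 with 14501, Gimap7 with 6768, Gimap1 with 6758 and Gimap6 with 5134. Below them in dKO were Gimap9 with 3077, Gimap8 with 3067 and Gimap5 with 1752. In control, the order of these levels was Gimap3 with 14306 scaled counts per kb, Gimap4 with 11471, Gimap1 with 5818 and Gimap6 with 4218. Gimap9 with 2846, Gimap8 with 2795, Gimap7 with 2651 and Gimap5 with 1600 followed in control. Gimap7 was therefore the third member in dKO and the seventh in control, while Gimap5 was last in both groups. By the mean level per kb of both groups, the members lay between the 90.4th (Gimap5) and the 99.0th percentile (Gimap3) of genes with a mean of 10 or more. Which neighbours in these orders differ beyond the spread between libraries was not tested, because only group means were given. Together the members made up 0.253% of all scaled counts in dKO and 0.210% in control. In such bulk samples, fewer cells of a type and less RNA per cell cannot be told apart.

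Overlapping genes take up few reads at Gimap7. A gene listed as RP24-315D19.2, which runs through Gimap7, Gimap1 and Gimap5 on the same strand, had 28.2 scaled counts in dKO and 14.8 in control, or 0.328% and 0.439% of the Gimap7 means in these groups. It shared 1.39% of the stretches of 50 bases in Gimap7 transcripts. An antisense gene at the start of Gimap1, listed as Gm3345 and named Gimap1os in GENCODE vM21, had 1709 scaled counts in dKO and 1415 in control. Adjusted p was 0.906 for it in the authors' deposited table. That gene matched 32.4% of the stretches of 50 bases in Gimap1 transcripts on the opposite strand. The libraries were strand-marked by dUTP, per the labels' protocols, but the sources used here do not give whether reads were counted by strand. Without strand, reads of Gimap1 and this antisense gene cannot be told apart.

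Of the tested genes that flank the cluster none rose. In the cluster and within 100 kb of its outermost members, the table lists 11 other genes, of which 10 were tested. By the authors' deposited table (DESeq) 4 of them fell and 0 rose. The 10 tested genes include RP24-315D19.2 and Gm3345, which overlap members and do not flank the cluster. They also include Rarres2 and Gm5111, with means of only 0.18 and 1.56 scaled counts. None of the 10 was higher at an unadjusted p under 0.05. Across all genes 3.18% fell. On the Gimap8 side, Lrrc61, which overlaps another gene, had 1768 scaled counts in dKO and 2345 in control (log2 -0.41, adjusted p 0.0423 in the authors' deposited table). Nearest to Gimap8, at a gap of 13.5 kb, AI854703, listed as a long intergenic noncoding RNA, had 129 in dKO and 200 in control (log2 -0.63, adjusted p 0.0446 in the authors' deposited table). The recovered values of its control libraries were 201 and 199.6 scaled counts. On the Gimap3 side, Tmem176b had 93.4 scaled counts in dKO and 210 in control (log2 -1.17, adjusted p 0.0094 in the authors' deposited table). Its neighbour Tmem176a had 46.8 in dKO and 116 in control (log2 -1.30, adjusted p 0.0207 in the authors' deposited table). Each control library was above the dKO mean, with 169 and 251 scaled counts for Tmem176b and 90.2 and 141 for Tmem176a. Both genes encode membrane channels and lay 67.3 and 75.0 kb beyond Gimap3. On the other side, between Lrrc61 and AI854703, Repin1 had 277 scaled counts in dKO and 220 in control, and Zfp775 had 293 in dKO and 377 in control. Neither Repin1 nor Zfp775 passed, with adjusted p-values of 0.512 and 0.527 in the authors' deposited table.

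**Figure D4:**
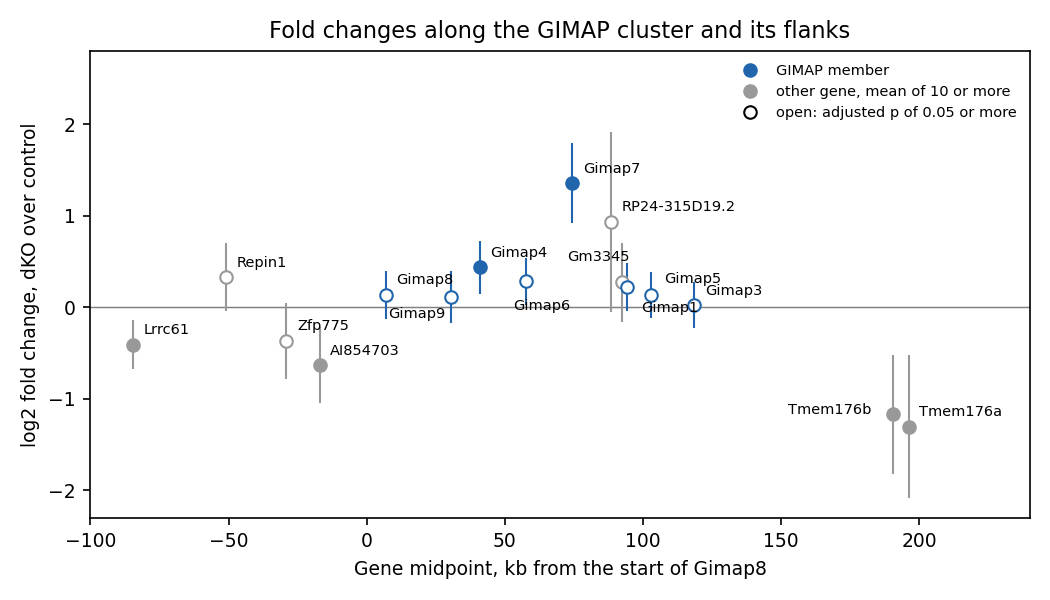
Log2 fold change, dKO over control, against the distance of each gene's midpoint from the start of Gimap8, in kb, for members (blue) and other genes with a mean of 10 or more (grey). Bars are 95% intervals implied by the deposited p, and open points have an adjusted p of 0.05 or more. The filled members Gimap7 and Gimap4 lie above 0, and the filled flanking genes Lrrc61, AI854703, Tmem176b and Tmem176a lie below it.

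Promoters of the members were read from RefSeq windows of 300 bases (GRCm38.p6), 250 before and 50 after each annotated start. All 8 members matched, with 9 windows, as Gimap8 has an additional start. The E-box CANNTG, the motif that E proteins bind and that reads alike on both strands, was searched because Id2 and Id3 act on E proteins. It occurred in 7 of 9 windows and 6 of 8 members, and in 72.3% of all 32851 promoter windows. Windows of the genes that rose, Gimap7 and Gimap4, and of Gimap9, the closest relative of Gimap7, are shown with each CANNTG in capitals. Gimap7 is at chr6:48718371-48718670, Gimap4 at chr6:48684328-48684627 and Gimap9 at chr6:48675885-48676184, each on the plus strand:
Gimap7: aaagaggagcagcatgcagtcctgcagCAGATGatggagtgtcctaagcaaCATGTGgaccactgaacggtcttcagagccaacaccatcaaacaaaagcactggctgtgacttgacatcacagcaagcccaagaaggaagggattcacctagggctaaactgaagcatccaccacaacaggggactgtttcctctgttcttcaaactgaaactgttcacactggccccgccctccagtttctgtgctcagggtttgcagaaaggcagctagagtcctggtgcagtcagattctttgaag
Gimap4: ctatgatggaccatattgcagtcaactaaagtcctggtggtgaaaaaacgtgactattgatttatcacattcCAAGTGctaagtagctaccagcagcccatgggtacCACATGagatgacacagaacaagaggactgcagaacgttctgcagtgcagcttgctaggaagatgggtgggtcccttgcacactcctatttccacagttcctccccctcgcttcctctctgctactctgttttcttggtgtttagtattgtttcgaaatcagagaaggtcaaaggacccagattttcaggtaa
Gimap9: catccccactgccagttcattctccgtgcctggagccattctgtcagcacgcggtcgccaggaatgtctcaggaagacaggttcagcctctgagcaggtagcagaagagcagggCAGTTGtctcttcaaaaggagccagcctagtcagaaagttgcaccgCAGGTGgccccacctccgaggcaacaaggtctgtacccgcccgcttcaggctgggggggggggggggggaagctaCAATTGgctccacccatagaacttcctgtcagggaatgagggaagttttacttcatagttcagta
The windows of Gimap7 and Gimap4 each held 2 matches and that of Gimap9 held 3. Matches in Gimap7 were CAGATG at -223 and CATGTG at -199 from the start, and those in Gimap4 were CAAGTG at -178 and CACATG at -143. Gimap1 and Gimap3 held 0 matches and Gimap5 held 3. On either strand, CAGCTG occurred in 0 member windows and in 16.3% of all windows. CACCTG occurred in 1, that of Gimap9, where it reads CAGGTG, and in 20.2% of all windows. Both are special cases of CANNTG. The FoxO motif GTAAACA occurred on either strand in 1 member window, that of Gimap3, and in 3.65% of all windows. Gimap8 held 2 matches in each window and Gimap6 held 1, and neither of these members passed. Whether E-boxes bear on the members' values was not tested. A match is a run of letters in this window and not evidence of binding.

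In the single pair, values are FPKM of 1 library each, summed over a gene's transcript entries, so there is no error and no test of the conditions. Id2 had 9.69 FPKM in the library labelled dKO and 18.6 in the library labelled control, and Id3 had 221 in the library labelled dKO and 160 in the library labelled control. Id2 thus followed the titles and Id3 did not. By title, Gimap7 had the highest log2 ratio among members, 0.39 on the log2(FPKM + 1) scale, with 145 FPKM in the library labelled dKO and 111 in the library labelled control. By genotype label it would be the lowest, at -0.39, and Gimap8 the highest, at 0.89. Gimap6 followed Gimap7 by title at 0.26, with 439 FPKM in the library labelled dKO and 366 in the library labelled control. Gimap4 was nearly level at 0.00, with 616 and 614 FPKM in the libraries labelled dKO and control. Its 2 transcript entries differed in direction: 1 entry had 344 FPKM in the library labelled dKO and 382 in the library labelled control, while the other entry had 271 in the library labelled dKO and 232 in the library labelled control.

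The other 5 members were lower in the library labelled dKO. Gimap8 had 43.2 FPKM there and 81.0 in the library labelled control, a log2 ratio of -0.89. Gimap3 had 352 FPKM in the library labelled dKO and 544 in the library labelled control (log2 -0.63), and Gimap9 had 93.3 and 132 in these libraries (log2 -0.50). Gimap1 had 196 FPKM in the library labelled dKO and 259 in the library labelled control (log2 -0.40). Gimap5 had 44.2 FPKM in the library labelled dKO and 57.0 in the library labelled control (log2 -0.36). Of all genes with 5 FPKM or more in at least 1 library, 50.9% had a ratio above 0 and 49.1% below, against 3 and 5 of the 8 members. A log2 ratio of -0.5 or lower was reached by 2 of 8 members and by 12.1% of those 8681 genes. Gimap9, at -0.498 before rounding to 2 digits, just missed this threshold. A ratio of 0.5 or higher was reached by 0 members and by 10.4% of those genes. The median log2 ratio was -0.38 over the members and 0.01 over those genes. By genotype label, 2 members would be 0.5 or more higher, against 12.1% of genes, 0 would be 0.5 or more lower, against 10.4%, and the members' median would be 0.38.

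Set side by side, the direction in which the pair and the replicated comparison differed depends on which label of the pair is taken. By title, Gimap1, Gimap3, Gimap5, Gimap8 and Gimap9 were lower in the pair and higher in the replicated comparison, where none of them passed. By genotype label, those 5 members would be higher in both, while Gimap7 and Gimap4, which rose in the replicated comparison, and Gimap6 would be lower in the pair. By title the 3 highest log2 values belonged to Gimap7, Gimap6 and Gimap4 in each comparison, and by genotype label these members would be the 3 lowest in the pair. The pair therefore gives no direction for any member without a choice between its labels. The order of levels was close: in the libraries labelled control, Spearman's rho between the members' scaled counts per kb and FPKM was 0.93 across the 8 members, which are not independent points. The comparisons used different libraries, builds and tables, and the difference between them was not tested.

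**Figure D5:**
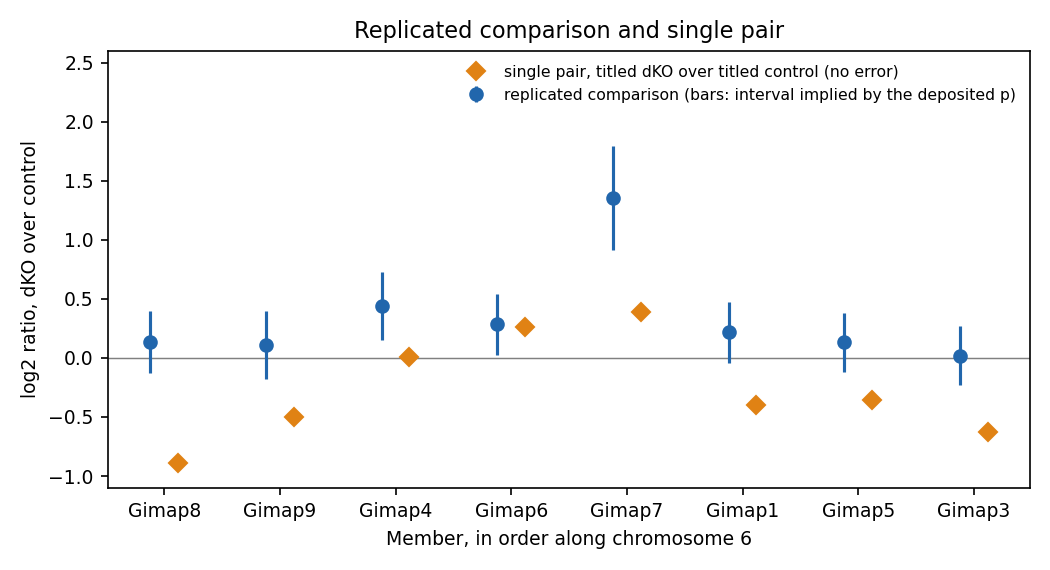
Log2 ratio, dKO over control, of each member in the replicated comparison (blue, 3 against 2 libraries, bars are 95% intervals implied by the deposited p) and in the single pair by title (orange, 1 library each, no error). By title the orange points lie below the blue ones for all 8 members, with Gimap7 highest in both. By genotype label the orange points would change sign, and 5 of 8 would lie above the blue ones.

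Genes linked to the family in other studies were counted from fixed lists, which were chosen with earlier results of these data known. For reference, 3.38% of all genes rose and 3.18% fell, and 13.5% had an unadjusted p under 0.05. Of 10 genes whose products are reported partners of GIMAP proteins, the authors' deposited table has 1 riser, 1 that fell and 8 that did not pass, and their median log2 fold change was 0.11. Bak1, which permeabilizes mitochondria in cell death, had 4547 scaled counts in dKO and 3065 in control (log2 0.57, adjusted p 0.0008 in the authors' deposited table), and it is marked as overlapping another gene. The survival gene Bcl2, marked in the same way, had 6597 scaled counts in dKO and 11394 in control (log2 -0.79, adjusted p 0.0015 in the authors' deposited table). Hspa8, a chaperone gene, had 129930 scaled counts in dKO and 64952 in control, yet its adjusted p was 0.219 in the authors' deposited table, and it overlaps another gene. Gabarapl2, the partner of Gimap6, had 3172 in dKO and 3264 in control (adjusted p 1 in the authors' deposited table).

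Genes of lymphocyte quiescence, the resting state in which GIMAP genes are also expressed, were counted as a second list. This list too was chosen with earlier results of these data known. The authors' deposited table (DESeq) has 7 of 20 lower, 0 higher and 13 that did not pass, against 3.18% lower over all genes and 5.48% over the abundant genes, with a median log2 fold change of -0.25. At an unadjusted p under 0.05, 9 were lower and 1 higher. S1pr1, whose product lets lymphocytes leave lymph nodes, had 6069 scaled counts in dKO and 12490 in control (log2 -1.04, adjusted p 3.39e-11 in the authors' deposited table). Il7r, the receptor gene for a survival cytokine, had 1913 scaled counts in dKO and 3105 in control (log2 -0.70, adjusted p 4.97e-05 in the authors' deposited table). Klf2, which encodes a transcription factor of resting T cells, had 6818 scaled counts in dKO and 10559 in control (log2 -0.63, adjusted p 5.32e-05 in the authors' deposited table). Among 18 other immunity GTPases of the GBP, IRG and Mx families, the authors' deposited table (DESeq) has 1 higher, 0 lower and 17 that did not pass, with a median log2 fold change of -0.11. At an unadjusted p under 0.05, 3 of them were lower. The riser was Gbp11, which overlaps another gene, with 229 scaled counts in dKO and 114 in control (adjusted p 0.0406 in the authors' deposited table).

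Markers of other cells that use GIMAP genes were measured beside these results. Of all genes, 6.56% passed and 13.5% had an unadjusted p under 0.05, so short lists may hold 0 that pass. Of 8 natural killer and CD8 T cell markers, 0 passed in the authors' deposited table, where DESeq was the tool and 1 had an unadjusted p under 0.05. Their summed level was 3021 scaled counts in dKO and 998 in control, of which the granule protease gene Gzma gave 2006 in dKO and 59.6 in control. The control libraries had 91.7 and 27.5 scaled counts of Gzma. Cd8b1, a CD8 chain gene, had 687 in dKO and 663 in control, most of what remained in control. Eomes had 119 in dKO and 90.7 in control, and Prf1 had 112 in dKO and 96.1 in control. Klrb1c had 64.7 in dKO and 69.7 in control, Cd8a 26.7 in dKO and 16.9 in control, Klrd1 3.72 in dKO and 1.76 in control, and Ncr1 0.754 in dKO and 0.777 in control. In the single pair the summed level was 89.2 FPKM in the library labelled dKO and 24.4 in the library labelled control. Of 8 endothelial markers, 0 passed, and 0 had an unadjusted p under 0.05, with a summed level of 4527 in dKO and 4818 in control, nearly all from Pecam1. Cdh5, the defining endothelial cadherin, had 11.8 scaled counts in dKO and 16.9 in control. Of 8 B cell and 7 myeloid markers, 0 passed, and at an unadjusted p under 0.05 there was 1, the myeloid Cd68. Their summed levels were 1352 in dKO and 1174 in control for B cells, and 293 in dKO and 226 in control for myeloid cells. None of the marker genes was at 0 in either group. The part of these cells in the Gimap7 and Gimap4 values was not tested.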

How the data were processed

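Values of the replicated comparison were deposited as a mean signal per group, in scaled counts (reads over the size factor of each library), although the file headers call them raw counts. The deposited log2 fold changes and p-values compare dKO with control. RSEM and DESeq, without versions, and builds mm10 and GRCm38 are named by the submitters' processing notes. The deposited FPKM values of the single pair come from TopHat 1.4.0 and Cuffdiff, its version given as 0.0.6, on mm9, per the submitters' processing notes.

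Count tests per library had been planned, but the table holds group means, so the authors' own p was taken from the table, and a call is an adjusted p under 0.05. Recomputing the Benjamini-Hochberg adjustment over all 31641 genes gave the deposited values within 0.00124. The adjustment was tested on simulated p-values. The 7538 genes without a p were left out. Reads per control library were taken where 1 pair of whole numbers gave the control mean within rounding, a step tested on simulated means.

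Standard errors implied by p assume a normal deviate and are approximate. Pair entries were matched to genes by RefSeq accession (97.5% of 27901), with a pseudocount of 1 FPKM, which understates changes of low genes. Shared stretches of 50 bases used GENCODE vM21 transcripts. Coding sequences were aligned with Biopython 1.88, and numbers were computed with Python 3.11.15, pandas 2.3.3 and scipy 1.17.1. Named genes are all members, Id2 and Id3, genes within 100 kb of the cluster, and up to 4 members of each list by smallest adjusted p. Marker genes, and Gabarapl2, Kdm5d and Uty, were named after their values were seen. The members and lists were chosen with earlier results of these data known.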

Additional observations from a re-analysis of the deposited data

How the results depend on the processing

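Gimap7 and Gimap4 were both called at an adjusted p under 0.1 and with p adjusted only over genes whose mean was at least 10. The count of members called was 1 in place of 2 at an adjusted p under 0.01 and with the Holm adjustment, where Gimap7 stayed and Gimap4 did not. It was also 1 without genes that overlap another, because Gimap7 is marked as overlapping and is left out by construction, while Gimap4 had an adjusted p of 0.0472 there. Setting group totals equal lowered every log2 fold change by 0.04, which turned Gimap3, not called, to -0.02. Setting the median of genes with a mean of 100 or more to 0 lowered them by 0.003. The log2 ratio of the summed family was 0.31, against a median of 0.18 over members. In the single pair by title, 31 of 32 values under other pseudocounts, transcript entries or centring moved by less than 0.1, and Gimap4 had -0.15 with its most abundant transcript entry alone. Naming the pair by its genotype labels, an alternative chosen after seeing the data, reversed every member by construction, to 0.89 for Gimap8, 0.63 for Gimap3, 0.50 for Gimap9, 0.40 for Gimap1, 0.36 for Gimap5, -0.0048 for Gimap4, -0.26 for Gimap6 and -0.39 for Gimap7. Leaving out each replicate, edgeR and DESeq2 were not run, because they need values per library. No paired analysis was possible because the columns are group means with no value per library. The replicated comparison rests on 5 libraries, of which only group means were used for the members.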

Other observations

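Autophagy genes, the machinery in which Gimap6 acts, were counted from a fixed list, also chosen with earlier results of these data known. The authors' deposited table (DESeq) has 3 of 28 lower, 0 higher and 25 that did not pass, against 3.18% lower over all genes. Those 3 alone had an unadjusted p under 0.05, against 13.5% of all genes, and the list's median log2 fold change was -0.04. Atg14, a subunit of the lipid kinase complex that starts autophagosomes, had 259 scaled counts in dKO and 407 in control (adjusted p 0.0054 in the authors' deposited table). Atg13, a subunit of the ULK1 kinase complex, had 1903 scaled counts in dKO and 2570 in control (adjusted p 0.0214 in the authors' deposited table). The protease gene Atg4c had 19.0 scaled counts in dKO and 45.6 in control (adjusted p 0.0396 in the authors' deposited table).

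Septins, GTPases that assemble into filaments, held 1 riser and 0 that fell among 13 in the authors' deposited table (DESeq). For comparison, 3.38% of all genes rose and 3.18% fell. At an unadjusted p under 0.05, 2 septins were higher and 1 lower, against 13.5% of all genes in either direction. The septins' median log2 fold change was 0.06. Sept11 had 5330 scaled counts in dKO and 3592 in control (adjusted p 0.006 in the authors' deposited table). In the single pair, Tmem176b had 4.86 FPKM in the library labelled dKO and 8.09 in the library labelled control. Lrrc61 had 23.8 and 32.7 in these libraries, and Tmem176a had 3.22 and 4.50. AI854703 went the other way, with 1.64 and 1.39 FPKM in these libraries. By genotype label each of these directions would reverse.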
